A study of Homo sapiens with 4 samples.

Results

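The genes described here are 9 of the 22033 genes with summed values in the table: the class I heavy chain genes HLA-B, HLA-C, HLA-E and HLA-F, the light chain gene B2M, the peptide transporter genes TAP1 and TAP2, and the class I-related genes MICA and MICB. They were chosen by name, with earlier results of these libraries known. All transcript rows that GENCODE v29 assigns to them were taken, and all 9 genes had a mean value of at least 10. The RNA came from U87, an established human glioblastoma line obtained from ATCC, and cells were taken 48 h after they received 50 nM of an RNA mimic. For 2 mimic libraries this was tRF-3009a, a transfer RNA fragment, and for 2 control libraries it was ssGL2, a single strand of the siRNA siGL2. All 4 libraries were transfected with Lipofectamine 2000, and each group holds a library numbered 1 and a library numbered 2. Nothing in the labels says that libraries came from separate cultures or what the number stands for, so the spread between them may be technical.

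Class I molecules carry peptides from inside the cell to its surface, where CD8 T cells read them. A heavy chain folds with beta-2-microglobulin in the endoplasmic reticulum, and the TAP1 and TAP2 proteins form the pump that brings peptides there from the cytosol. Interferons and NF-kB act on the heavy chain promoters, and lowered class I is a known way for glioma cells to avoid T cells. MICA and MICB resemble class I heavy chains but bind neither peptide nor beta-2-microglobulin, and act as stress ligands for the NKG2D receptor of natural killer and T cells.

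Recovered reads came to between 28860788 and 33848402 per library. Of 9 glioma and mesenchymal markers 8 had a mean of at least 10, and between numbers 2 were higher and 4 lower in number 2 without overlap. Among all 16611 genes tested the shares were 38.6% higher and 37.2% lower. VIM had 276546 and 249907 in number 1 (control, then mimic) but 126391 and 121239 in number 2, and CD44 and NES were also lower there, at log2 differences of -1.05 and -2.27. TNC and OLIG2 were higher, at 0.89 and 2.16, while SOX2 (9.35 to 18.0) and GFAP (12.5 to 29.7) were low in all libraries. The list summed to 364558 and 332685 in number 1 and to 230285 and 217088 in number 2, mostly through VIM.

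Some markers of other cell types also differed between numbers. Of 10 immune markers 3 had a mean of at least 10, and the list summed to 10699 and 8302 in number 1 and to 8464 and 7330 in number 2, sums that overlapped and were nearly all CD68. CSF1R, a macrophage receptor, had 440 and 340 in number 1 but 53.8 and 52.4 in number 2, while the leukocyte gene PTPRC was at 4.77 to 11.2 and CD14 at 0 to 4.77. The 5 endothelial markers summed to 464 and 543 in number 1 and to 280 and 227 in number 2. All 4 with a mean of at least 10 were lower without overlap, against 37.2% of all genes. The 5 epithelial markers summed to 373 and 301 in number 1 and to 518 and 522 in number 2. That rise lay mostly in ESRP1, which had 13.5 and 3.597 in number 1 but 201 and 173 in number 2. EPCAM was lower, at a log2 difference of -1.58, and CDH1, KRT8 and KRT18 overlapped between numbers. So 1 of 5 was higher and 1 lower without overlap, against 38.6% and 37.2% of all genes. The part of these markers in the differences between numbers was not tested. In bulk RNA, fewer cells of a kind and less RNA per cell cannot be told apart.

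The genes differ in how far they move between libraries, and their promoters are shown for reference. Whether the promoters have a part in these differences was not tested. Of the 9 genes, 8 had an entry among RefSeq promoters (GRCh38.p14) and HLA-E had none; for TAP1, which has 2, the first was used. Each line gives the 130 bases from 210 to 81 bases before the start of transcription, as in the reference assembly and not as in U87, whose alleles may differ. Capitals mark matches, on either strand, to an NF-kB pattern (GGG, any 5 bases, CC), an interferon regulatory factor pattern (AANNGAAA) or a heat shock element pattern (GAANNTTC).
HLA-B (chr6:31357260-31357389, minus strand): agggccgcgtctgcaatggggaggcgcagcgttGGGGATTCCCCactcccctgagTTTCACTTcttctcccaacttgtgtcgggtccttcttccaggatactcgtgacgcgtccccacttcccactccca
HLA-C (chr6:31272173-31272302, minus strand): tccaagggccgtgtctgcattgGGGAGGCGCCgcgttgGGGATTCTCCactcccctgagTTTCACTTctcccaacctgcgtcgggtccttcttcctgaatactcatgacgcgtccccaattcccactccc
HLA-F (chr6:29723224-29723353, plus strand): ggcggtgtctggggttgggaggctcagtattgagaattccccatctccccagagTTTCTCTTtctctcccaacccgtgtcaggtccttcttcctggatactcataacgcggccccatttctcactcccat
B2M (chr15:44711307-44711436, plus strand): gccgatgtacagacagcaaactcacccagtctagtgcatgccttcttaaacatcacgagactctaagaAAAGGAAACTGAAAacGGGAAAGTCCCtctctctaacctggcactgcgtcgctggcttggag
TAP1 (chr6:32853785-32853914, minus strand): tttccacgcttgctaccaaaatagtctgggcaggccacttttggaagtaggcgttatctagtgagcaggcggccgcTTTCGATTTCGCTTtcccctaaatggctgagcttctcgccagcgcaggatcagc
TAP2 (chr6:32838820-32838949, minus strand): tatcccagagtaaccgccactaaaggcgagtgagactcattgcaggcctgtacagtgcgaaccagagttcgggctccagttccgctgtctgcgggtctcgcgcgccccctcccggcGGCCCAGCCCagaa
MICA (chr6:31403385-31403514, plus strand): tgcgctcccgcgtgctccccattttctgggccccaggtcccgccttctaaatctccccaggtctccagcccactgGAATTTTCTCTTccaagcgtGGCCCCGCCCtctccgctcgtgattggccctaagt
MICB (chr6:31497935-31498064, plus strand): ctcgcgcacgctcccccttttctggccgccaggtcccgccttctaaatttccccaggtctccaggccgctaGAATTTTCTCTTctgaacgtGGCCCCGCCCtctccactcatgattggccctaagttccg
Over the 250 bases before the start, the interferon regulatory factor pattern was present in 8 of 8 of these promoters, against 20.3% of 35116 RefSeq promoters. The NF-kB pattern was present in 7 of 8, against 54.4%. The heat shock pattern was present in 2 of 8, MICA and MICB, against 5.78%, and there it overlaps the interferon regulatory factor match. The pattern TGACG of the X2 box was present in 4 of 8 (HLA-B, HLA-C, B2M and TAP2) against 21.2%, and CCAAT in 7 of 8 against 32.01%. The 35116 take in every promoter of a gene, while the 8 take in only the first of each. The second TAP1 promoter, left out here, matched the NF-kB pattern and none of the other patterns. In HLA-B and HLA-C the NF-kB match is followed by the same interferon regulatory factor match, TTTCACTT, while HLA-F has TTTCTCTT and no NF-kB match by these letters. The TAP2 match to the interferon regulatory factor pattern lies nearer the start than the window shown. These are matches of letters and not measured sites.

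Most of the value of these genes lay on rows that are not on the primary assembly. The genes lie on chromosome 6 in the major histocompatibility complex, except B2M on chromosome 15. That complex is so variable that the reference carries alternate haplotypes of it, each with its own copies of the transcripts. A program that assigns reads to transcripts may give them to the closest copy or divide them among equal copies. The 9 genes had 159 rows, of which 28 were on the primary assembly and 131 were known to GENCODE v29 only through its table of transcripts and symbols. The latter held 99.8% of the summed value of HLA-B, over 99.9% of that of HLA-C, all of that of HLA-E and 99.6% of that of HLA-F. They held 94.9% for MICA and 94.1% for MICB, 51.4% for TAP1, 21.3% for B2M and 6.38% for TAP2.

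For HLA-B a single row, ENST00000421349.6, held 98.6% of the value, while its 2 rows on the primary assembly summed to 36.4 and 78.5 in control 1 and 2 and to 48.6 and 84.8 in mimic 1 and 2. For HLA-C a single row, ENST00000400394.7, held 96.2%. HLA-E was divided evenly: 4 rows with the same values, ENST00000383597.6 and its 3 copies, each held 24.8%. TAP1 had 6 such rows of 10.2% each, 1 of them TAP1-201 on the primary assembly, beside TAP1-205 with 37.5%. Of the 159 rows, 111 had the same values in every library, within 0.1%, as at least 1 other row of their gene. A single row of such a set therefore gives only a part of the gene's reads, and the values below are sums over all rows of a gene.

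**Figure D1:**
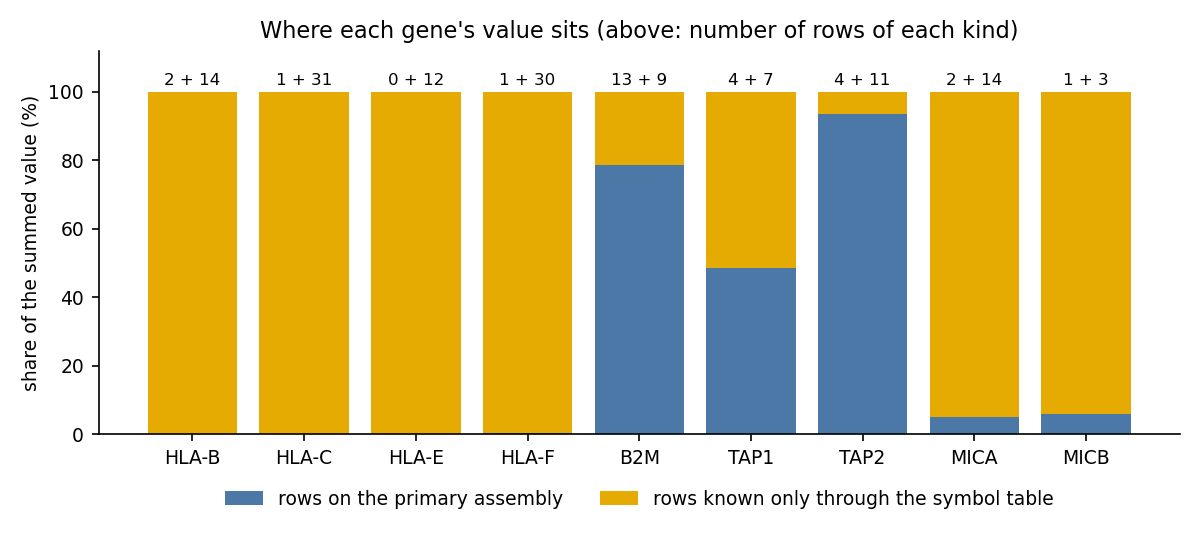
Share of each gene's summed value over the 4 libraries (y axis, %) that lies on rows of the primary assembly (blue) and on rows known only through the symbol table (yellow), with the number of rows of each kind above the bar. HLA-B, HLA-C, HLA-E, HLA-F, MICA and MICB have 94.1% or more on the latter, and TAP2 has 6.38%.

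The heavy chain genes were higher in both number 2 libraries than in both number 1 libraries, and alike in control and mimic. HLA-B, which presents peptides to CD8 T cells (chromosome 6, 31269491 to 31357188 in GRCh38, a model that overlaps HLA-C), had 22436 normalized counts in control 1 and 45196 in control 2, and 20119 and 42203 in the mimic libraries of those numbers. In the next values the control library comes before the mimic library. Its number 2 libraries stood at 2.06 times its number 1 libraries. HLA-C, which presents peptides and is the main ligand of inhibitory killer cell receptors (31268749 to 31272130), had 11198 and 9801 in number 1 but 17582 and 17349 in number 2, or 1.67 times. Of the heavy chain genes it had the smallest difference between numbers.

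HLA-E, which presents leader peptides of other class I chains to the NKG2A receptor of natural killer cells (30489467 to 30494205), had 3965 and 3881 in number 1 but 9127 and 8469 in number 2, or 2.24 times. HLA-F, a class I chain found mostly inside cells (29722775 to 29738528), had 402 and 424 in number 1 but 1404 and 1395 in number 2, or 3.39 times. The HLA-F difference was the largest of the 9 genes, and its libraries of equal number lay close together, with means of 413 ± 15.4 (SD, n = 2) and 1399 ± 5.98. Summed, the 4 heavy chain genes had 38000 and 34225 in number 1 but 73308 and 69416 in number 2.

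B2M, which encodes the light chain of class I molecules (chromosome 15, 44711487 to 44718877), had 45880 and 49612 in number 1 but 64519 and 59571 in number 2. That is 1.30 times, less than any heavy chain gene. The mean log2 difference was 0.38 for B2M against 1.04 for HLA-B, 0.74 for HLA-C, 1.16 for HLA-E and 1.76 for HLA-F. Its rows did not move alike. B2M-202, a protein-coding transcript of 933 bases, had 6965 and 7883 in number 1 and 7198 and 5952 in number 2, so its numbers overlapped. All other B2M rows summed to 38915 and 41729 against 57321 and 53619. Most of that sum lay on rows not annotated as protein-coding. How reads were divided among the B2M rows is an estimate, so these shares are not measured amounts of each transcript. B2M-205, with 20.8% of the gene, is annotated as a processed transcript. B2M-201 and B2M-212, with 20.1% each, are annotated for nonsense-mediated decay, and a copy equal to B2M-212 held a further 20.1%. Of the other protein-coding rows, B2M-215 had 1954 and 2127 against 2217 and 2375, and B2M-208 had 51.0 and 35.1 against 53.8 and 36.2. B2M-202 held 15.2% and 15.9% of the gene in number 1 and 11.2% and 10.0% in number 2.

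TAP1, a subunit of the peptide pump (chromosome 6, 32845209 to 32853978), had 1082 and 959 in number 1 but 1792 and 1754 in number 2, or 1.74 times. TAP2, the partner subunit (32821833 to 32838780), had 1425 and 1403 against 2166 and 1649, or 1.34 times, with control 2 above mimic 2. The transporter genes thus did not overlap between numbers, and TAP1 differed by more than TAP2. The set of 6 equal TAP1 rows summed to 636 and 534 in number 1 but 1190 and 1043 in number 2, while TAP1-205, which is annotated as a processed transcript, had 435 and 414 against 586 and 659.

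MICA and MICB moved in opposite directions between numbers. MICA (chromosome 6, 31399784 to 31415315) had 784 and 711 in number 1 and 677 and 661 in number 2, or 0.896 times; the numbers did not overlap, but control 2 lay close under mimic 1. MICB (31494881 to 31511124) had 355 and 314 in number 1 but 471 and 539 in number 2, or 1.51 times. Most of the MICB difference lay in ENST00000428059.5, with 241 and 216 against 354 and 419, while ENST00000443156.2 had 85.2 and 54.9 against 58.3 and 51.6.

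Of the 9 genes, 8 were higher and 1 was lower in number 2 without overlap between the numbers. Over all 16611 genes tested, 38.6% were higher and 37.2% lower in that way. HLA-B, HLA-E and HLA-F were also more than 2-fold higher, 3 of 9 genes against 9.16% of all genes, and 0 were more than 2-fold lower, against 9.62%, or 18.8% of all genes in either direction. The genes nearest the 2-fold line were HLA-B inside it, with a log2 difference of 1.04, and TAP1 outside it, with 0.80. Without control 2 the HLA-B difference was 0.99 and without mimic 1 it was 0.96, which left 2 genes past 2-fold. The median log2 difference was 0.74 for the 9 genes and 0.01 for all genes. The number was no planned factor and the genes were chosen with these values known, so no test was made of it. On primary assembly rows alone, 6 of the 9 genes passed the minimum and 0 of them were past 2-fold.

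**Figure D2:**
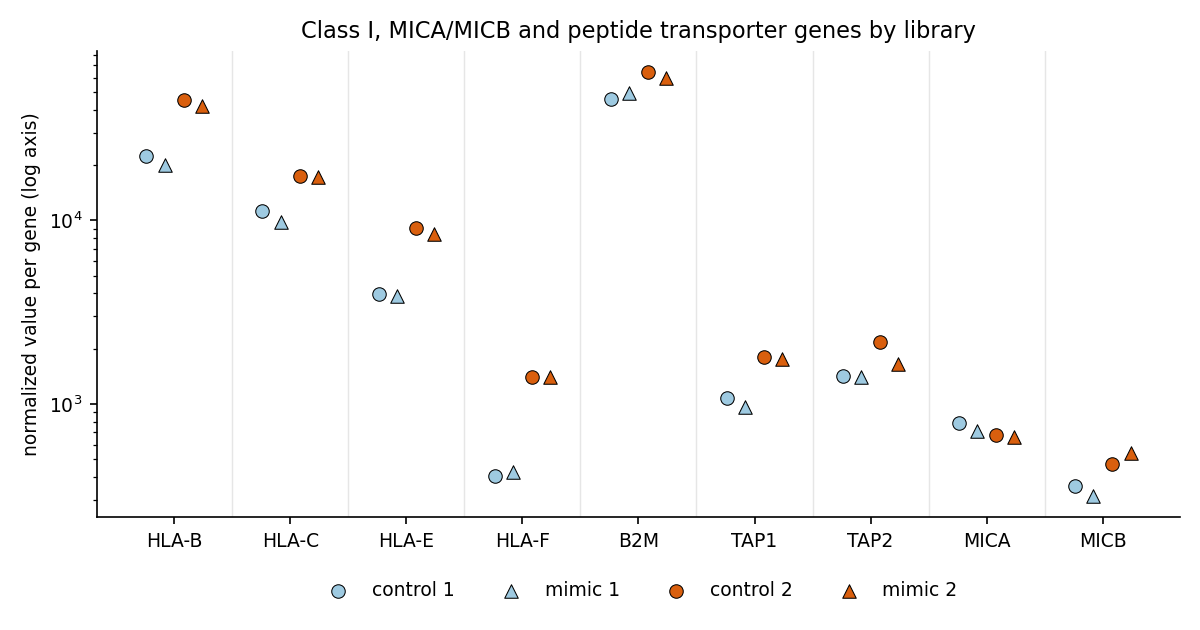
Normalized value per gene (log axis) in each of the 4 libraries for the 9 genes, with circles for control, triangles for mimic, blue for number 1 and orange for number 2. Orange lies above blue in every gene except MICA, and circles and triangles of a colour lie close together.

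Between mimic and control none of the 9 genes passed the test. HLA-B had a log2 difference of -0.13 ± 0.54 (SE, n = 2 per group), HLA-C of -0.11 ± 0.40, HLA-E of -0.07 ± 0.59 and HLA-F of 0.03 ± 0.88. B2M had -0.0012 ± 0.27, TAP1 -0.10 ± 0.44, TAP2 -0.21 ± 0.29, MICA -0.09 ± 0.23 and MICB 0.0089 ± 0.38. The adjusted p was 1.00 for all 9 genes (limma on log2(value + 1), two-sided, Benjamini-Hochberg over 16611 genes). In this fit 0% of all genes passed at 0.05, with 23 genes at an unadjusted p under 0.05 and none of the 9 among them. EdgeR and DESeq2 on recovered reads also called 0 genes, with 34 and 20 at an unadjusted p under 0.05. The standard errors take in the difference between numbers, so changes smaller than that spread were not detectable.

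The groups overlapped for all 9 genes, where 6.19% of all genes were higher and 6.16% lower in the mimic without overlap. Within numbers the differences were small, the largest being that of TAP2, at -0.02 in number 1 and -0.39 in number 2. HLA-B was at -0.16 in number 1 and -0.10 in number 2, and HLA-E at -0.03 and -0.11. HLA-C was at -0.19 and -0.02, TAP1 at -0.17 and -0.03, and MICA at -0.14 and -0.04. B2M was at 0.11 and -0.12, HLA-F at 0.08 and -0.0087, and MICB at -0.18 and 0.20, so these 3 genes differed in sign between numbers. Lower values in the mimic within both numbers were seen for 6 of the 9 genes and for 27.8% of all genes. The median difference was -0.09 for the 9 genes and -0.01 for all genes.

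Leaving out a library turned the sign of each of the 9 differences at least once. The HLA-B difference was 0.38 without control 2, 0.41 without mimic 1, -0.63 without control 1 and -0.66 without mimic 2. HLA-F was at 0.93, 0.89, -0.87 and -0.83 in the same order. With 3 libraries the numbers are unequally shared between mimic and control, and the difference between numbers enters these values.

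**Figure D3:**
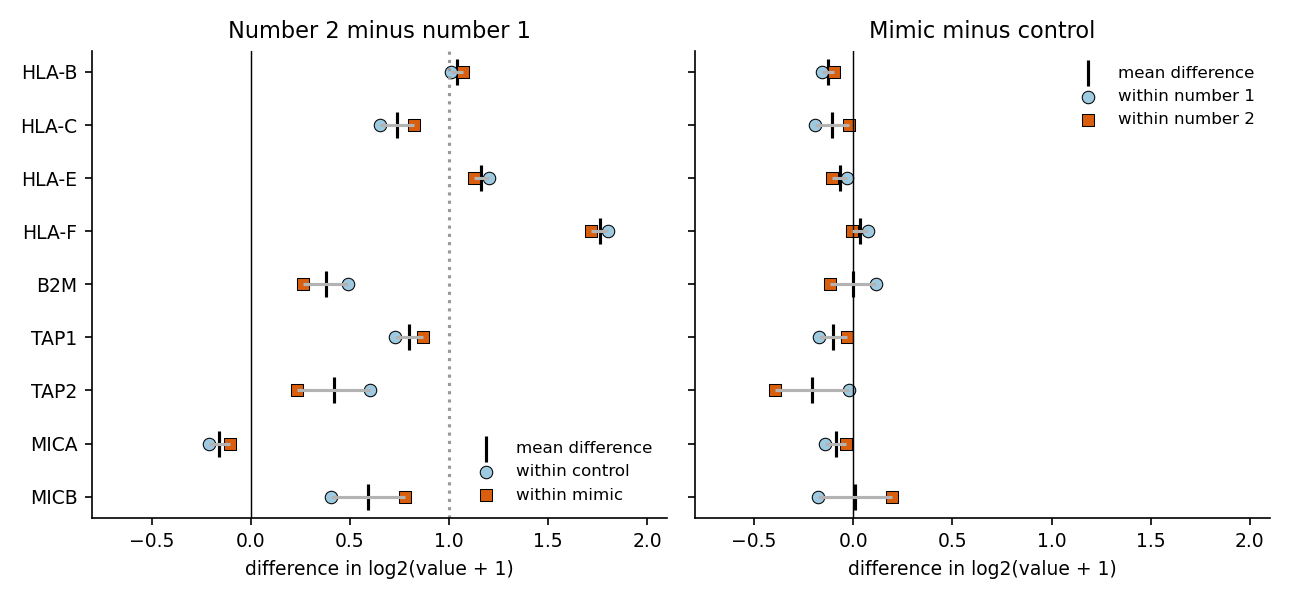
Difference in log2(value + 1) for each gene between numbers (left) and between mimic and control (right), on the same scale, with the mean as a black bar and the differences within each treatment or number as points. The dotted line marks 2-fold. HLA-F reaches 1.76 on the left, while every mean on the right lies between -0.21 and 0.03.

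Single rows gave larger differences between mimic and control than the genes did. MICA-209 (ENST00000449934.7), a protein-coding transcript of 1386 bases on the primary assembly, had 48.9 and 76.2 in control 1 and 2 and was listed at 0 in both mimic libraries. The pair of identical MICA rows ENST00000546529.3 and ENST00000547767.2, which held 80.05% of the gene, summed to 591 and 533 for the controls and to 625 and 519 with the mimic. So the bulk of MICA overlapped between treatments, while a row with 4.42% of it did not. In a limma fit of single transcripts MICA-209 had an unadjusted p of 0.00431 and an adjusted p of 1.00. Among 60463 transcripts tested there, 0.926% were listed at 0 in both libraries of one treatment only, and MICA-209 was the 1 of 94 rows of these genes with a mean of at least 10. On primary assembly rows alone, MICA would be at 58.2 and 76.2 in the controls and 3.602 and 6.66 with the mimic, a log2 difference of -3.51.

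TAP2 showed the same kind of split. TAP2-201, which held 88.4% of the gene, had 1291 and 1715 without the mimic but 1238 and 1630 with it, a log2 difference of -0.07. TAP2-205 had 79.97 and 117 in the controls and 120 in mimic 1, and was listed at 0 in mimic 2. The identical rows ENST00000383119.8 and ENST00000383240.8 had 145 each in control 2, 1.04 and 2.70 in control 1 and mimic 1, and 0 in mimic 2. The TAP2 difference of -0.39 within number 2 lay largely in these small rows. Of the 94 rows of these genes, 15 were listed at 0 in at least 1 library, as were 13.1% of all transcripts. No row passed the transcript fit, where 0 of 60463 did and 965 had an unadjusted p under 0.05.

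**Figure D4:**
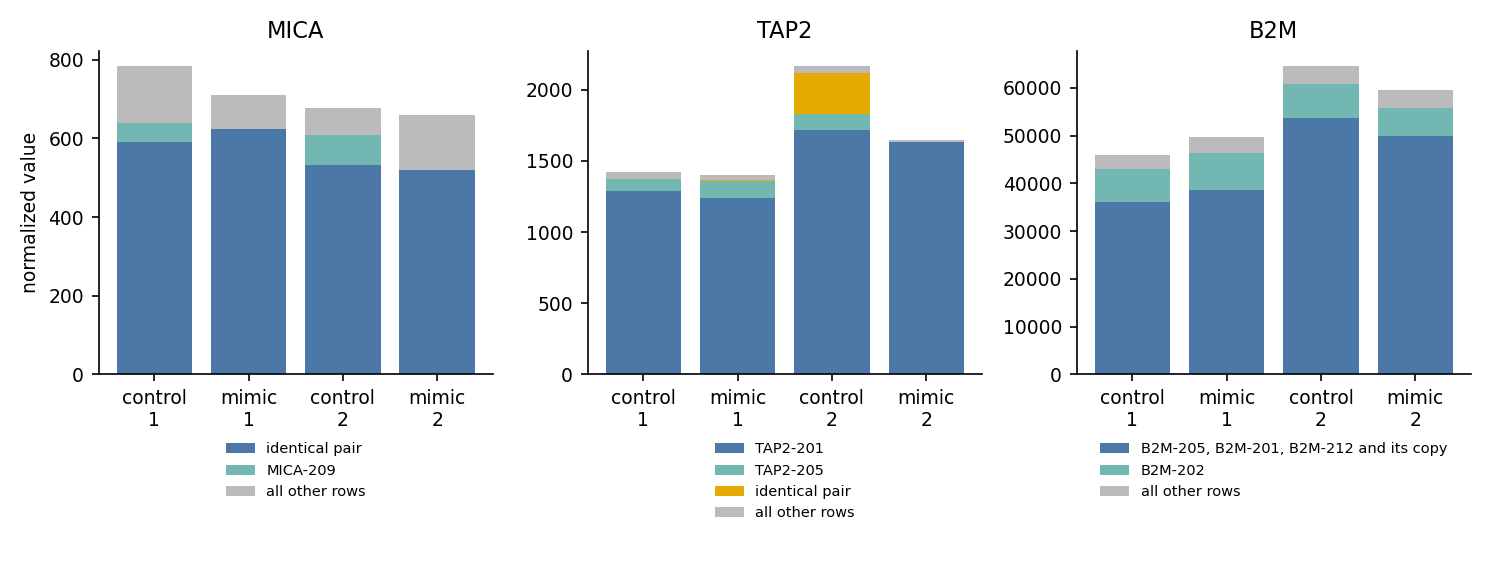
Normalized values of MICA, TAP2 and B2M (y axes) in each library, divided into their main rows. MICA-209 and the small TAP2 rows are near or at 0 in some libraries and not in others. B2M-202 overlaps between numbers, while the sum of the other B2M rows is higher in number 2.

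The other genes of the pathway were counted in 7 lists. In the class I transcription list 12 of 15 genes were higher in number 2 and 3 were lower without overlap, against 38.6% and 37.2% of all genes, and the median log2 difference was 0.48. IRF1, an interferon-induced activator of class I genes, had 503 and 501 in number 1 but 3294 and 3398 in number 2, a log2 difference of 2.73. IRF9, the DNA-binding part of the interferon-activated ISGF3 complex, was at 1.03, and RFXANK, a subunit of the RFX complex on the X box, at 0.81. RELA, an NF-kB subunit, was at 0.31. NLRC5, the class I transactivator, had 1712 and 1426 in number 1 but 1141 and 1017 in number 2. NLRC5, named after its values were seen, was thus lower where the heavy chain genes were higher.

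In the proteasome list 6 of 9 genes were higher and 2 lower without overlap, against 38.6% and 37.2% of all genes. PSMB10, an immunoproteasome subunit gene, had 692 and 531 in number 1 but 1472 and 1397 in number 2, and PSME2, a subunit of the PA28 activator, was at a log2 difference of 0.96. PSMB7, whose product PSMB10 replaces, was at 0.80. PSMB9, a further immunoproteasome subunit gene that adjoins TAP1 and was named after its values were seen, had 518 and 487 against 355 and 330. In the peptide loading and trimming list 3 of 8 were higher and 4 lower, against 38.6% and 37.2% of all genes, with a median of -0.10. TAPBPL, a peptide editor, was at 0.76 and ERAP1, which trims peptides in the endoplasmic reticulum, at 0.73. TAPBP, which encodes tapasin, was at 0.09 and the chaperone gene CALR at -0.35.

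In the interferon signalling list 4 of 8 measured genes were higher and 2 lower, against 38.6% and 37.2% of all genes, with a median of 0.23. SOCS1, a feedback inhibitor, had 73.8 and 49.5 in number 1 but 130 and 113 in number 2, and the kinase genes JAK2 and JAK1 were at 0.66 and 0.65. Among other NKG2D ligands and shedding enzymes 3 of 9 were higher and 5 lower, against the same shares of all genes. ULBP1, an NKG2D ligand gene, had 274 and 281 in number 1 but 1877 and 1750 in number 2, a log2 difference of 2.70, beside 0.59 for MICB and -0.16 for MICA. RAET1E and RAET1G, of the same ligand family, were at -1.27 and -0.31, and MMP14, a membrane protease that can release MICA, was at -0.02.

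In the class II list 9 of 10 genes were lower in number 2 without overlap and 0 higher, against 37.2% and 38.6% of all genes, with a median of -0.51. CD74, the class II invariant chain, had 4310 and 3273 in number 1 but 2608 and 2737 in number 2, and the peptide exchange genes HLA-DMA and HLA-DMB were at -0.95 and -1.87. Of 7 class I-like genes 4 had values, and 2 were higher and 2 lower without overlap, against 38.6% and 37.2% of all genes. The Fc receptor gene FCGRT was at 1.49, the iron regulator gene HFE at -1.24 and the protein C receptor gene PROCR at -1.14. No gene of these lists passed between mimic and control, with adjusted p of 1.00 and medians from -0.16 to -0.01, against -0.01 for all genes.

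**Figure D5:**
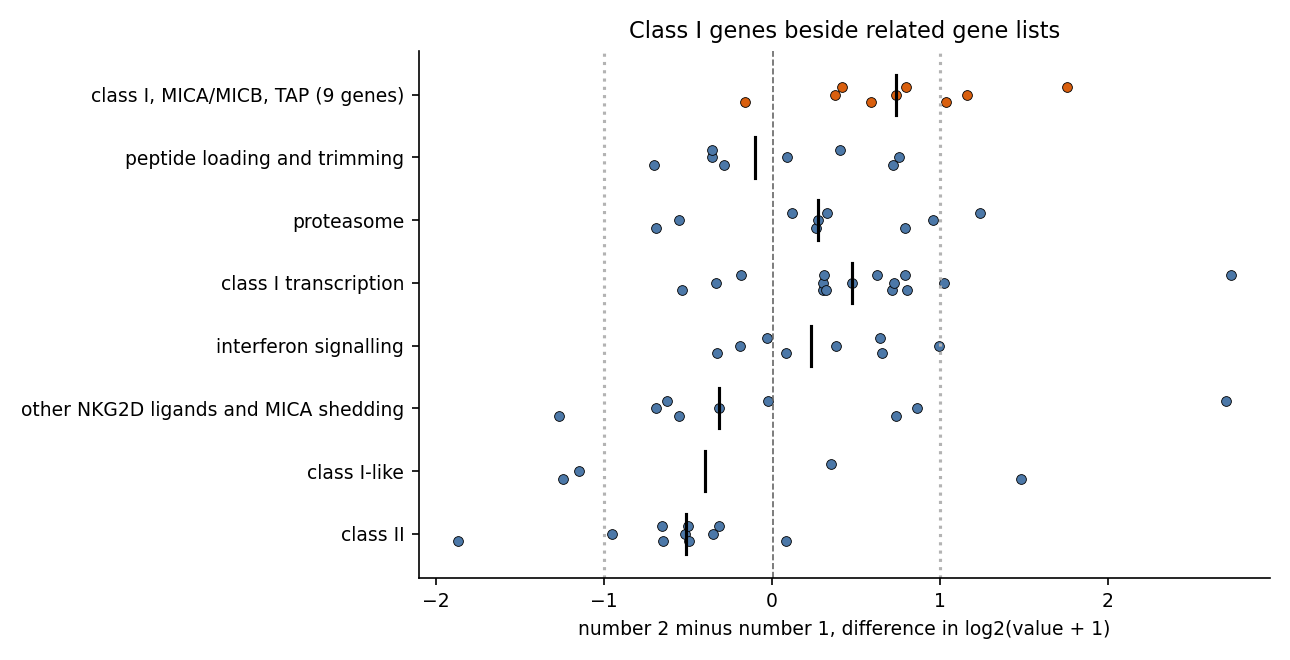
Difference in log2(value + 1) between number 2 and number 1 (x axis) for each gene with a mean of at least 10 in the 9 genes (orange) and in 7 related lists (blue), with a black bar at each median, dotted lines at 2-fold and a dashed line at the median of all genes. The median is 0.74 for the 9 genes, 0.48 for class I transcription and -0.51 for class II.

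The genes most like the class I complex were sought among 6202 protein-coding genes outside all lists with a mean of at least 1000. Likeness was the Euclidean distance over the 4 libraries between a gene's centred log2 values and the mean of HLA-B, HLA-C, HLA-E, HLA-F and B2M. The nearest were PARP14 (distance 0.025), LIMS1 (0.027), GRPEL2 (0.037), TRIM56 (0.042) and PSAP (0.051). PARP14 had 924 and 889 in number 1 and 1846 and 1772 in number 2. With 4 libraries in 2 clusters, many genes share such a profile.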

How the data were processed

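Polyadenylated RNA of 4 U87 libraries was measured, per the labels. Kallisto, DESeq2 and hg38 are listed without versions in the submitters' processing notes, and the annotation release is not given in the sources used here. The deposited values are a signal per Ensembl transcript. Their steps look like estimated reads divided by 1 factor per library, which no source used here states. Of the low values, up to 20.5 steps, 95.6% to 99.7% were whole multiples of 1 step within 0.1. Dividing by the step gave recovered reads for edgeR and DESeq2, which are approximate in high rows, and depth was 28860788 to 33848402 per library. The lowest row summed to 10 reads, so lower transcripts were not analysed here.

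Of 100809 rows, 90643 matched GENCODE v29 (GRCh38) on the primary assembly and 3671 only its table of transcripts and symbols, by identifier without version. The other 6495 rows held 1.72% to 1.81% of each library and were left out. Values were summed by symbol over 22033 genes. limma with a trend was fitted to log2(value + 1) of genes with a mean of at least 10, without the replicate number, at an adjusted p of 0.05. Fold changes on this scale understate changes of low genes. The difference between numbers was described without a test.

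The 9 genes, the lists and the alternatives were chosen with earlier results of these data known. In each list the gene with the highest value per length, the 2 with the largest difference between numbers and the 1 with the largest between treatments are named. Levels were not compared between the 9 genes, since rows off the primary assembly have no length here. The limma step was tested only on simulated counts without a difference between numbers. That setting is unlike these libraries, so it does not show how the fit performs on them. R 4.3.3, limma 3.58.1, edgeR 4.0.16, DESeq2 1.42.0 and Python 3.11.15 were used.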

Additional observations from a re-analysis of the deposited data

How the results depend on the processing

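Under other pseudocounts, filters, scalings, edgeR, DESeq2, single transcripts, rows matched by version, primary assembly rows and each library left out, 0 genes were called between mimic and control. With a replicate block limma called 97 genes and 0 of the 9. Deviations of libraries with the same number had a correlation of 0.76 over 16611 genes, with only 2 pairs and no label that says what a number shares, so the numbers were not taken as a pairing.

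With 1 library left out, the mimic minus control difference ran from -0.66 to 0.41 for HLA-B, -0.52 to 0.31 for HLA-C, -0.67 to 0.53 for HLA-E, -0.87 to 0.93 for HLA-F, -0.25 to 0.24 for B2M, -0.54 to 0.33 for TAP1, -0.51 to 0.094 for TAP2, -0.19 to 0.017 for MICA and -0.38 to 0.40 for MICB. Their median ran from -0.52 to 0.33. Each such fit mixes the numbers unequally.

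Primary assembly rows alone, an alternative chosen after seeing the data, gave 0.26 for HLA-B, 0.0024 for B2M, 0.024 for TAP1, -0.09 for TAP2, -3.51 for MICA and 0.38 for MICB between treatments, and between numbers 0.56 for MICA and 0 genes of the 9 past 2-fold. Requiring the same version gave 0.044 for MICA between treatments and -2.08 for TAP2, and -0.64 for TAP2 between numbers, since TAP2-201 was then lost. A minimum mean of 100 left 1816 of 11738 genes past 2-fold between numbers, against 3119 of 16611. The median share of the leading row, 61.4% over all libraries, was 67.8% in control 1 and 53.4% in mimic 1, and the cause was not tested. Shares per transcript length were not run, since most rows of these genes have no length here. The precision between treatments is limited by 2 libraries per group, whose spread takes in the difference between numbers.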
